A study of Rattus norvegicus with 20 samples.

Results

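The genes described here are those of sterol and fatty acid synthesis that the SREBP transcription factors are known to control, measured in INS-1, an insulin-making line from a rat insulinoma that serves as a beta-cell model. They are a list of 36 genes defined by their place in the pathway and drawn up with earlier results of these data known, and 33 were measured among 18166 genes. The measured genes are 16 of 18 enzymes of sterol synthesis, all 6 genes of sterol sensing and transport, and 11 of 12 genes of fatty acid synthesis. Hmgcs1, Mvk and Fasn were not analysed here. Each measured gene is represented by 1 probe set of the Affymetrix Rat Gene 2.0 array.

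The study asked how C4BP (C4b-binding protein), which inhibits complement in plasma, alters what IAPP does to these cells. IAPP, islet amyloid polypeptide, is a hormone of the beta cell that can form amyloid. All wells held INS-1 cells for which the labels name no transgene, kept as 5 clones for 10 passages, plated at 100000 per well and grown for about 48 h. Wells then received 77 uM monomeric IAPP alone, IAPP with 0.6 uM C4BP, C4BP alone, or 1% DMSO, the solvent of IAPP, with RNA extraction 10 h later. The 20 arrays fall into 4 title groups of 5. By the likely reading of the titles, wells titled DMSO received solvent, wells titled IAPP received IAPP, wells titled C4BP received IAPP with C4BP, and wells titled C4BPD received C4BP without IAPP. A separate treatment field of the labels gives another assignment, set out below. Whether the C4BPD wells also held DMSO is not stated in the labels. The titles also carry a running number, by which the 4 arrays of each replicate number follow one another, always in the order IAPP, C4BP, C4BPD and DMSO. What it counts is not stated, and place in that order and title group cannot be told apart. The labels do not say that a replicate number is a clone, so p-values measure the spread between these samples, which all come from 1 cell line.

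SREBP-1 and SREBP-2, encoded by Srebf1 and Srebf2, are made as precursors in the membrane of the endoplasmic reticulum. When sterols are scarce, Scap carries them to the Golgi, where proteases release the part that enters the nucleus and binds promoters. When sterols are plentiful, Insig proteins hold Scap back, and Insig1 is itself an SREBP target. SREBP-2 is known mainly for sterol genes and SREBP-1 mainly for fatty acid genes, with NF-Y and Sp1 as partner factors at many of these promoters.

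The groups rest on the titles, and the treatment field goes against them. It names the word of the title in 2 of 10 IAPP- and DMSO-titled arrays, and the condition of the likely reading in 3 of all 20. With arrays grouped by that field, limma called 0 of 18166 genes and 0 members in every comparison, and between 0 and 2 members had an unadjusted p under 0.05 in any of them. Every result below therefore holds for the title groups. Array medians of intensity ran from 170.01 to 182.36, no pair of arrays held identical values, and 23 background probe sets of the array had mean intensities from 5.78 to 1045 with a median of 57.9. All 33 members lay above that median in every array, and 22 lay above 1313, the highest background value, in every array. Acat2, Pmvk, Mvd, Tm7sf2, Hsd17b7, Insig2, Stard4, Srebf1, Acaca, Scd and Lpin1 did not clear 1313 in every array.

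Promoters were read from a RefSeq table of the GRCr8 assembly for 27 of the 33 measured members, as 300 bases, 250 before and 50 after the annotated start, with a pair of promoters for Srebf1. The windows below hold the 200 bases before the start, in lower case with the motifs CCAAT (the NF-Y box), GGGCGG (the GC box bound by Sp1) and CACGTG (an E-box) in capitals, also where they read on the opposite strand. Genes were chosen within each class by the smallest p in the F test over the 4 groups. The windows are those of 4 sterol enzymes, a regulator and a fatty acid gene. They lie at chr16:29746913-29747112 on the plus strand for Msmo1 and at chr13:84722755-84722954 on the minus strand for Hsd17b7. The Idi1 window is chr17:66547525-66547724 on the minus strand, and that of Mvd is chr19:67414975-67415174 on the minus strand. The Insig1 window is chr4:8057770-8057969 on the minus strand, and the Scd2 window is chr1:253118177-253118376 on the plus strand.
Msmo1: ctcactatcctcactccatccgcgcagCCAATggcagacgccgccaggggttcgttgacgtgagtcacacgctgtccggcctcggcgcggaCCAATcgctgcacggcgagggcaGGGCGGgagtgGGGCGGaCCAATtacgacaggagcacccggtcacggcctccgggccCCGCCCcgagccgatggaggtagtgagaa
Hsd17b7: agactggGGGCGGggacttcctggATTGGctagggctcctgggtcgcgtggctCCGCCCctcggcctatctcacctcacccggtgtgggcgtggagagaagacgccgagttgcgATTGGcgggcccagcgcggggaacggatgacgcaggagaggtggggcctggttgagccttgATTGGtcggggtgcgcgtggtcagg
Idi1: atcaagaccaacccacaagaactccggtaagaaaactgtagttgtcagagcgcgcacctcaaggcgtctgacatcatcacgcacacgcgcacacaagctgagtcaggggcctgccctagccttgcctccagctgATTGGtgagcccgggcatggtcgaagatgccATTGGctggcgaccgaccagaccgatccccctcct
Mvd: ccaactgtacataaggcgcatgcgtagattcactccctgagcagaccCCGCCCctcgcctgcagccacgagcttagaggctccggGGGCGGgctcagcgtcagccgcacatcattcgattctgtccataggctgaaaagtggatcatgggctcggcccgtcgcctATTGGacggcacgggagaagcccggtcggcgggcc
Insig1: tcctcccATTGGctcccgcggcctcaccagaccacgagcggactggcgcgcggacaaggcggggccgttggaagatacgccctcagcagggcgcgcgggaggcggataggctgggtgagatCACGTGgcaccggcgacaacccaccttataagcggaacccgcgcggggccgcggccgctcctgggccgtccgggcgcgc
Scd2: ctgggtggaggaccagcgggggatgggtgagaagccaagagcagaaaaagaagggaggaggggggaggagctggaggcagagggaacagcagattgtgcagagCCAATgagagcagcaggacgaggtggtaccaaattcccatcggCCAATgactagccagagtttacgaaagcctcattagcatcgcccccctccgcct
The windows of Msmo1 and Hsd17b7 each hold 3 NF-Y boxes, those of Idi1 and Scd2 hold 2, and those of Mvd and Insig1 hold 1.

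Over the 300-base promoters, CCAAT occurred on either strand in 20 of 27 members (74.1%), against 37.5% of 33469 promoters in the table and 37.5% of the 16050 promoters of genes tested. GGGCGG occurred in 20 of 27 members (74.1%), against 33.1% of all promoters and 47.3% of those of genes tested. CACGTG occurred in 4 of 27 (14.8%), namely Sc5d, Insig1, Scap and Elovl5, against 6.42% and 7.68%. The sterol element searched as TCACNCCAC occurred in 0 of 27 members and in 1.12% of all promoters, which says only that these letters are not in these windows. CCAAT was present in 14 of the 17 members with a promoter that fell in C4BP against DMSO, and in 6 of the 10 that were not called there. These matches describe letters, not bound sites, and each motif was counted whether or not it overlapped another.

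Most sterol synthesis genes read lower in all treated groups than in DMSO, and fewer of the fatty acid genes were called. A gene is called here when its limma adjusted p, by Benjamini-Hochberg over all 18166 genes, is under 0.05, and a difference is on the log2 scale of intensity. In IAPP against DMSO 11 of 33 members were called, all lower (33.3%), where 3.38% of all genes were called and 1.97% were called lower. In C4BPD against DMSO 5 members were called, all lower (15.2%), where 1.93% of all genes were called and 0.765% were called lower. In C4BP against DMSO 21 members were called, all lower (63.6%), where 5.96% of all genes were called and 3.23% were called lower. The moderated F test over the 4 groups called 22 of 33 members, against 7.85% of all genes. An unadjusted p under 0.05 was found for 23, 19 and 26 of the 33 members in IAPP, C4BPD and C4BP against DMSO. Of all 18166 genes it was found for 2235, 2208 and 2945 in these 3 comparisons. These 3 comparisons share the 5 DMSO arrays, so their values stand side by side and are not independent. In RNA from whole wells, fewer cells of a kind and less RNA per cell cannot be told apart. Of the 33 members, 26 had their highest group mean in DMSO and 20 had their lowest in C4BP. This order was not counted over all genes, so these counts describe the members only. Without the 4 arrays numbered 4 the IAPP count was 5, and without those numbered 2, 4 or 5 the C4BP count was 12, 11 or 13. The C4BPD count was 3 without the arrays numbered 3, 4 or 5. With the replicate number as a block the IAPP and C4BPD counts were higher, as given below with the other alternatives. The plot of differences by pathway order shows every member.

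**Figure D1:**
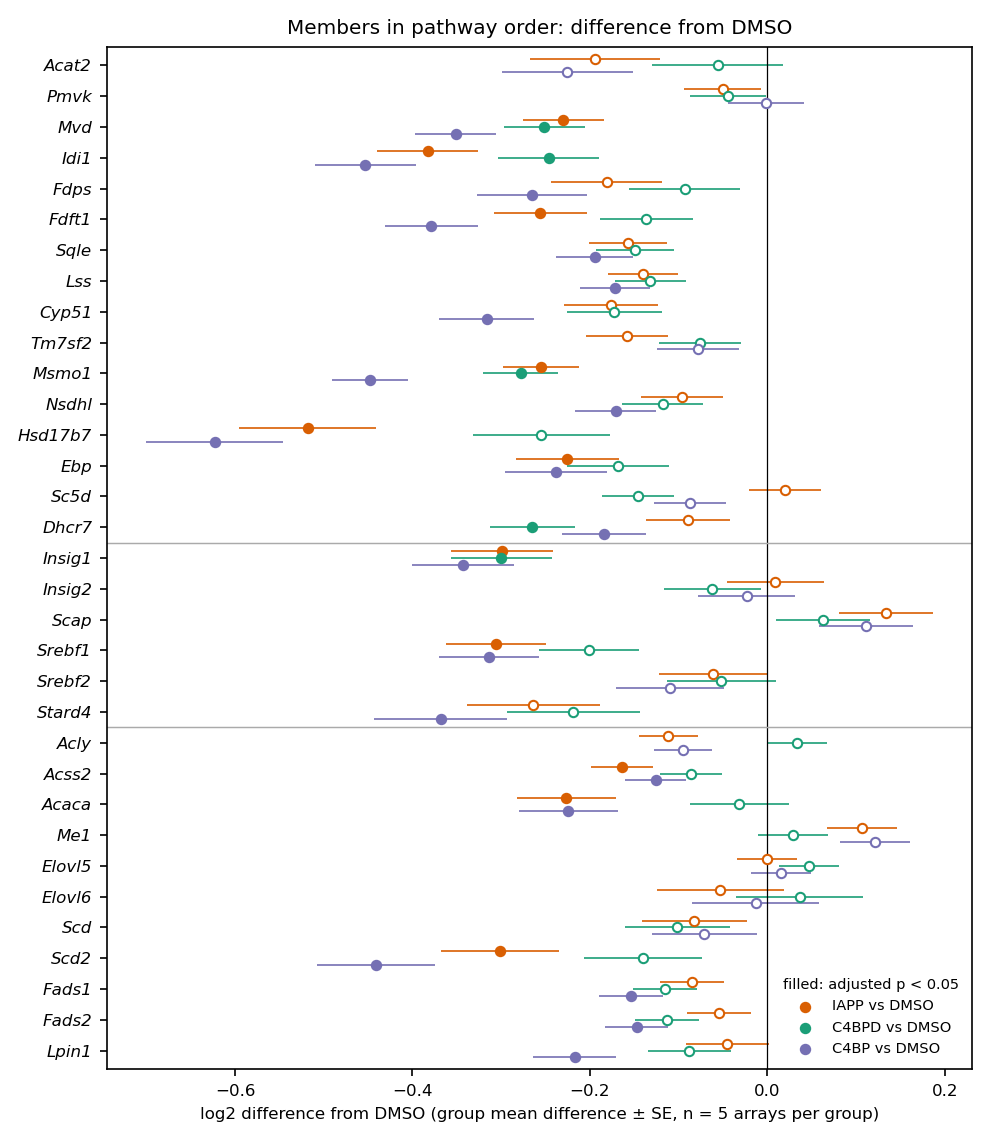
Difference from DMSO on the log2 scale (x axis, group mean difference ± SE, n = 5 arrays per group) for the 33 measured members in pathway order (y axis), with sterol enzymes above, regulators and transport in the middle and fatty acid genes below. Filled points have a limma adjusted p under 0.05 and all lie left of 0, in number 11 for IAPP, 5 for C4BPD and 21 for C4BP.

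The first enzymes of the pathway build farnesyl diphosphate from acetyl-CoA by way of mevalonate, and 5 of those listed were measured. In IAPP 2 of 5 fell, in C4BPD 2 of 5 and in C4BP 3 of 5. Mvd, the decarboxylase that makes isopentenyl diphosphate (probe set 17734111), and Idi1, the isomerase that follows it (probe set 17720423), fell in all 3. Values below are linear intensities in the order of the array numbers 1 to 5. Mvd read 1469, 1536, 1547, 1564 and 1621 in the DMSO wells and 1259, 1373, 1302, 1279 and 1385 in the IAPP wells. It read 1413, 1329.7, 1172, 1308 and 1285 in the C4BPD wells and 1261, 1213, 1191, 1235 and 1164 in the C4BP wells. Each of the treated groups lay wholly below the DMSO wells. Mvd fell by 14.7% in IAPP, 16% in C4BPD and 21.6% in C4BP, with log2 differences of -0.23 ± 0.046 (SE), -0.25 ± 0.046 and -0.35 ± 0.046 (limma, adjusted p = 0.0052, 0.00348 and 3.41e-05).

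Idi1 read 3366, 3303, 3633, 3690.4 and 3061 in the DMSO wells and 2628, 2648, 2759, 2505 and 2515 in the IAPP wells. It read 2723, 2924, 3018, 2851 and 2835 in the C4BPD wells and 2519.8, 2320.5, 2584, 2776 and 2263 in the C4BP wells. No treated well of Idi1 reached the lowest DMSO well, 3061. The mean fell from 3411 ± 257 in DMSO (SD, n = 5) to 2611 ± 105 in IAPP, 2870.2 ± 109 in C4BPD and 2492 ± 207 in C4BP. The log2 differences were -0.38 ± 0.057 (SE), -0.25 ± 0.057 and -0.45 ± 0.057 (limma, adjusted p = 0.00035, 0.0272 and 2.31e-05). The C4BPD call of Idi1 was lost without DMSO 3 or 4, or without C4BPD 1, 2, 4 or 5, with an adjusted p of up to 0.08. Fdps, which makes farnesyl diphosphate, fell in C4BP by 16.8% (adjusted p = 0.0109, limma), and its differences of -0.18 in IAPP and -0.093 in C4BPD were not called. Acat2, the thiolase that starts the pathway, differed by -0.19, -0.056 and -0.23 and was not called. Pmvk, the phosphomevalonate kinase just before Mvd, was not called, with differences of -0.050, -0.044 and -0.0013 and a 95% interval of -0.091 to 0.089 in C4BP.

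The 3 enzymes that turn farnesyl diphosphate into lanosterol all fell in C4BP. In IAPP 1 of the 3 fell, and in C4BPD limma called 0 of 3, with all 3 at an unadjusted p under 0.05. Fdft1, squalene synthase, commits the pathway to sterols (probe set 17703706). Fdft1 read 2928, 3044, 3127, 3287 and 3394 in the DMSO wells and 2566, 2590.5, 2634, 2731 and 2678 in the IAPP wells. It read 2765, 2701, 3016, 2938 and 2928 in the C4BPD wells and 2309.8, 2196, 2508, 2709.8 and 2427 in the C4BP wells. The IAPP and C4BP wells lay below every DMSO well, while the highest C4BPD wells overlapped the lowest DMSO wells. Fdft1 fell by 16.3% in IAPP and 23.1% in C4BP, with log2 differences of -0.26 ± 0.052 (SE) and -0.38 ± 0.052 (limma, adjusted p = 0.00654 and 6.77e-05), and in C4BPD the difference was -0.14 (adjusted p = 0.257). Sqle, squalene epoxidase, fell in C4BP by 12.6% and Lss, lanosterol synthase, by 11.2%. Their differences in IAPP, -0.16 and -0.14, missed the threshold closely (limma, adjusted p = 0.0522 and 0.0569). The C4BP call of Lss was lost with arrays centred on their medians and with only the groups compared. Without the arrays numbered 2, 4 or 5 it was also lost (limma, adjusted p up to 0.0913). The C4BP call of Sqle was lost without the arrays numbered 2 or 4 (limma, adjusted p up to 0.0875).

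Of the 8 measured enzymes between lanosterol and cholesterol, 3 fell in IAPP, 2 in C4BPD and 6 in C4BP. Msmo1, the oxygenase that begins removal of a pair of methyl groups from the sterol ring (probe set 17707485), had the smallest F-test p of all members (limma, adjusted p = 4.39e-06). Msmo1 read 4582, 4519, 5054, 4845 and 4527 in the DMSO wells and 4134, 4035, 4023, 3834 and 3685 in the IAPP wells. It read 3895, 3926, 3997, 3879.9 and 3691 in the C4BPD wells and 3534, 3438, 3576, 3458 and 3235 in the C4BP wells. All treated wells lay below all DMSO wells, and the C4BP wells also lay below every IAPP and C4BPD well. The mean of Msmo1 fell from 4706 ± 236 in DMSO (SD, n = 5) to 3942 ± 180.4 in IAPP, 3878 ± 114 in C4BPD and 3448 ± 132 in C4BP. These are falls of 16.2%, 17.5% and 26.7%, with log2 differences of -0.26 ± 0.043 (SE), -0.28 ± 0.043 and -0.45 ± 0.043 (limma, adjusted p = 0.00114, 0.000666 and 7.01e-07).

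Hsd17b7, a keto-sterol reductase that acts in the same demethylation steps (probe set 17686414), had the lowest log2 difference of the 33 members in IAPP and in C4BP. Hsd17b7 read 750.5, 803, 823, 1017 and 872 in the DMSO wells and 557, 585, 637, 568 and 619.7 in the IAPP wells. It read 765, 726, 651, 674 and 747 in the C4BPD wells and 550.2, 490.4, 631, 586 and 508 in the C4BP wells. The IAPP and C4BP wells lay below every DMSO well and every C4BPD well, and C4BPD 1 lay above the lowest DMSO well. Hsd17b7 fell by 30.2% in IAPP and 35.1% in C4BP, with log2 differences of -0.52 ± 0.077 (SE) and -0.62 ± 0.077 (limma, adjusted p = 0.000344 and 1.83e-05). In C4BPD the difference was -0.25 ± 0.077 (limma, adjusted p = 0.113).

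Cyp51, the lanosterol demethylase that opens this stretch (probe set 17781286), was called in C4BP alone among the comparisons with DMSO. Cyp51 read 2301, 2195, 2406, 2337 and 2138 in the DMSO wells and 2098, 2040.2, 2128, 1884 and 1922 in the IAPP wells. It read 2061, 2077, 2042, 1968 and 1942 in the C4BPD wells and 1939, 1739, 1935, 1929.7 and 1610.4 in the C4BP wells. No treated well overlapped the DMSO wells, and the C4BP wells lay below all C4BPD wells. Cyp51 fell by 19.7% in C4BP, a log2 difference of -0.32 ± 0.053 (SE; limma, adjusted p = 0.000578), beside -0.18 in IAPP and -0.17 in C4BPD, which were not called. Nsdhl, the dehydrogenase of the same demethylation steps, fell in C4BP by 11.2%, and this call was lost without DMSO 4 or 5 or without C4BP 1, 2 or 4 (limma, adjusted p up to 0.0878).

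Of the 4 other enzymes of this stretch, 1 fell in IAPP, 1 in C4BPD and 2 in C4BP. Ebp, the sterol isomerase, fell by 14.5% in IAPP and 15.2% in C4BP. Its groups overlapped with DMSO 1, and the IAPP call was lost without any of DMSO 2 to 5 or IAPP 1 to 4 (limma, adjusted p up to 0.105). Dhcr7, the reductase that completes cholesterol, fell by 16.8% in C4BPD (limma, adjusted p = 0.00328) and 12% in C4BP, and its IAPP difference of -0.089 was not called. The C4BP call of Dhcr7 was lost without DMSO 4 or 5 or C4BP 4 or 5, with an adjusted p of up to 0.0732. Sc5d, the desaturase one step earlier, was not called against DMSO, with 0.020 in IAPP, -0.15 in C4BPD and -0.087 in C4BP. Tm7sf2, the sterol reductase that acts between Cyp51 and Msmo1, differed by -0.16, -0.076 and -0.078 and was not called either.

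**Figure D2:**
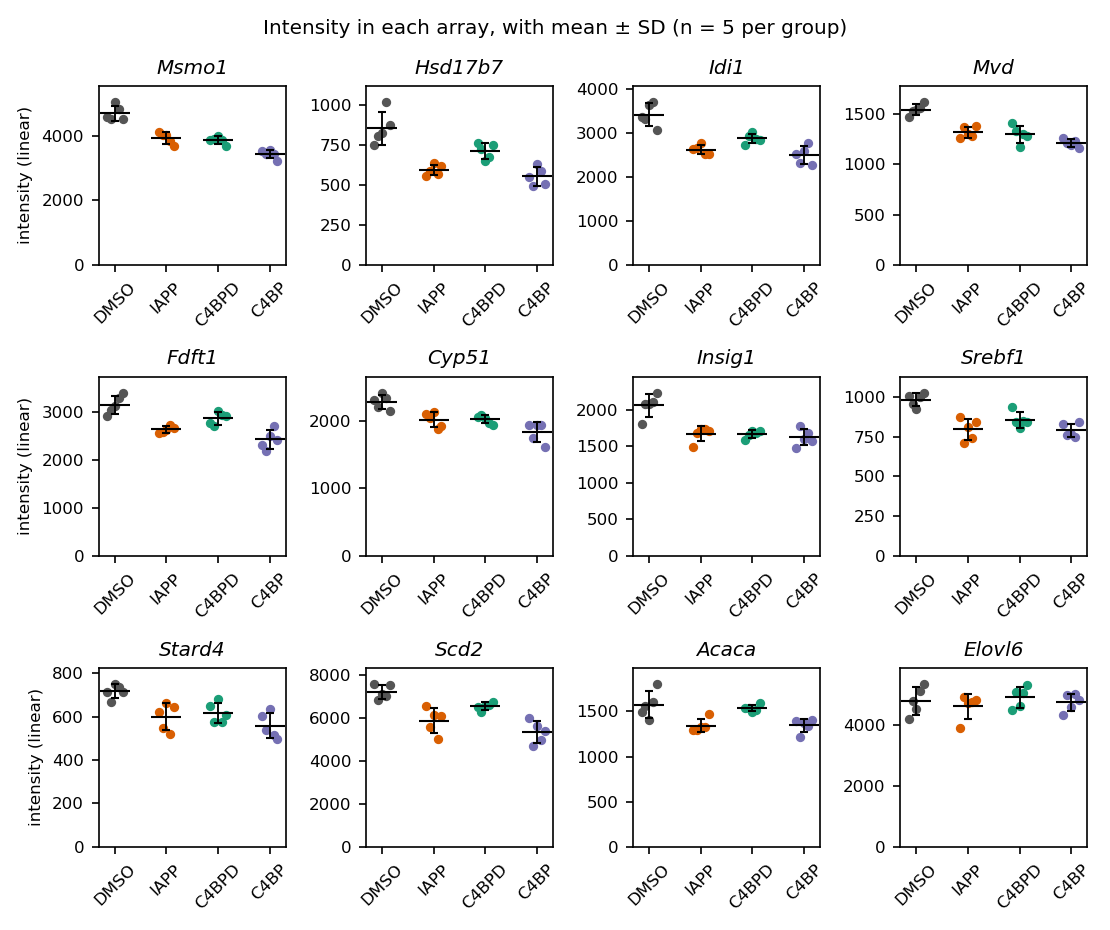
Linear intensity (y axis, from 0) in each of 20 arrays for 12 members, by title group (x axis), with bars for the group mean and SD (n = 5). Treated wells of Msmo1, Idi1 and Mvd lie below all DMSO wells, the 3 treated groups of Insig1 overlap one another, and Elovl6 overlaps throughout.

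Among the sensors and regulators, Insig1 and Srebf1 fell and the others were not called. Insig1, which retains the SREBP and Scap complex in the endoplasmic reticulum (probe set 17788437), is a known readout of SREBP activity. Insig1 read 1799, 2079.6, 2075, 2109 and 2225 in the DMSO wells and 1495, 1681, 1736, 1736 and 1704 in the IAPP wells. It read 1581, 1658, 1713, 1676 and 1712 in the C4BPD wells and 1481, 1774, 1603, 1676 and 1573 in the C4BP wells. All treated wells lay below all DMSO wells, and the 3 treated groups overlapped one another. Insig1 fell by 18.7% in IAPP, 18.8% in C4BPD and 21.1% in C4BP, with log2 differences of -0.30 ± 0.057 (SE), -0.30 ± 0.057 and -0.34 ± 0.057 (limma, adjusted p = 0.00382, 0.00584 and 0.000551). C4BP differed from C4BPD by -0.043, with a 95% interval of -0.16 to 0.077.

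Srebf1 encodes SREBP-1 and was read by probe set 17656772. Srebf1 read 1008, 955, 925, 997 and 1023 in the DMSO wells and 871, 713, 810.0, 739 and 845 in the IAPP wells. It read 938, 839.8, 806, 846 and 843 in the C4BPD wells and 829, 762, 769, 748 and 842 in the C4BP wells. The IAPP and C4BP wells lay below every DMSO well, and C4BPD 1 overlapped the DMSO range. Srebf1 fell by 19.1% in IAPP and 19.5% in C4BP, with log2 differences of -0.31 ± 0.056 (SE) and -0.31 ± 0.056 (limma, adjusted p = 0.00272 and 0.00113), and differed by -0.20 in C4BPD (adjusted p = 0.0789). Srebf2, which encodes SREBP-2, differed by -0.061, -0.052 and -0.11 with no call. Insig2, the second Insig gene, differed by 0.0089, -0.062 and -0.023 with no call. Scap, the escort protein, had positive differences of 0.13, 0.062 and 0.11, also not called.

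Stard4, a carrier that moves cholesterol between membranes (probe set 17725358), fell in C4BP. Stard4 read 715, 667, 749, 738 and 715 in the DMSO wells and 621, 548, 661, 520.0 and 646 in the IAPP wells. It read 649, 573, 681, 574 and 607 in the C4BPD wells and 604, 536, 633, 514 and 498 in the C4BP wells. The IAPP and C4BP wells lay below all DMSO wells, and C4BPD 3 overlapped the lowest of them. Stard4 fell by 22.5% in C4BP, a log2 difference of -0.37 ± 0.075 (SE; limma, adjusted p = 0.00347), beside -0.26 in IAPP (adjusted p = 0.0587) and -0.22 in C4BPD (adjusted p = 0.175).

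Of the 11 fatty acid genes, 3 fell in IAPP and 6 in C4BP. In C4BPD limma called 0 of 11, and 4 had an unadjusted p under 0.05, beside 2208 of all 18166 genes. Scd2, a stearoyl-CoA desaturase that makes monounsaturated fatty acids (probe set 17625860), had the lowest log2 difference of the class. Scd2 read 7589, 6853, 7150.1, 7019.8 and 7558 in the DMSO wells and 6571, 5592, 6136, 5047 and 6097 in the IAPP wells. It read 6514, 6299, 6565, 6642 and 6780 in the C4BPD wells and 6009.6, 4687, 5618, 4980.1 and 5427 in the C4BP wells. Every treated well lay below every DMSO well, and the C4BP wells lay below all C4BPD wells. The mean of Scd2 fell from 7234 ± 328 in DMSO (SD, n = 5) to 5889 ± 584 in IAPP and 5344 ± 522 in C4BP, with log2 differences of -0.30 ± 0.067 (SE) and -0.44 ± 0.067 (limma, adjusted p = 0.0117 and 0.000191). In C4BPD it was 6559.9 ± 177, a difference of -0.14 (adjusted p = 0.405). Scd, a related desaturase, differed by -0.082, -0.10 and -0.071 with no call. Scd was dim, with a mean intensity of 203 over all arrays.

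Of the enzymes that supply acetyl-CoA and malonyl-CoA, Acaca and Acss2 fell in IAPP and C4BP, and Acly was not called against DMSO. Acaca, acetyl-CoA carboxylase, makes malonyl-CoA and was read by probe set 17649706. Acaca read 1496, 1562, 1409.5, 1605 and 1801 in the DMSO wells and 1292, 1298, 1326, 1330.5 and 1467 in the IAPP wells. It read 1536, 1542, 1496, 1514 and 1590.1 in the C4BPD wells and 1398, 1221, 1368, 1334 and 1404 in the C4BP wells. The C4BP wells lay below all DMSO wells, IAPP 5 overlapped the DMSO range, and the C4BPD wells lay within it. Acaca fell by 14.5% in IAPP and 14.4% in C4BP (limma, adjusted p = 0.025 and 0.0173), and its C4BPD difference was -0.032. The IAPP call of Acaca was lost without DMSO 2, 4 or 5 or IAPP 1, 2, 3 or 4 (adjusted p up to 0.0731), and the C4BP call without DMSO 5 or C4BP 2 (up to 0.0544).

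Acly, ATP citrate lyase, makes cytosolic acetyl-CoA from citrate (probe set 17661380). Acly read 9362, 8931, 8647, 8579 and 9124 in the DMSO wells and 8511, 8230.5, 8263, 8073 and 8232 in the IAPP wells. It read 9299, 9163, 8808, 9210 and 9212 in the C4BPD wells and 8487, 8251, 8212, 8209.9 and 8621 in the C4BP wells. The IAPP wells lay below the DMSO wells, the C4BP wells overlapped the lowest of them, and the C4BPD wells lay within the DMSO range. Acly was not called against DMSO, with log2 differences of -0.11 ± 0.033 (SE) in IAPP, 0.034 ± 0.033 in C4BPD and -0.095 ± 0.033 in C4BP (limma, adjusted p = 0.0757, 0.754 and 0.11).

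Acss2 makes acetyl-CoA from acetate (probe set 17767961). Acss2 read 1657, 1795, 1760.4, 1860.4 and 1775 in the DMSO wells and 1575, 1605, 1603, 1517 and 1596 in the IAPP wells. It read 1666, 1708, 1634, 1612 and 1712 in the C4BPD wells and 1636, 1647, 1611, 1634 and 1577 in the C4BP wells. The IAPP and C4BP wells lay below the lowest DMSO well, 1657, and the C4BPD wells straddled it. Acss2 fell by 10.7% in IAPP and 8.36% in C4BP, with log2 differences of -0.16 ± 0.035 (SE) and -0.13 ± 0.035 (limma, adjusted p = 0.00849 and 0.0339). The C4BP call was lost without any of DMSO 2 to 5 or without C4BP 1, 3, 4 or 5, with an adjusted p of up to 0.104.

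The remaining fatty acid genes were called in C4BP or not at all. Fads1 and Fads2, the desaturases of polyunsaturated fatty acids, fell in C4BP by 10.1% and 9.72% (limma, adjusted p = 0.0111 and 0.0149). Both calls were lost with arrays centred on their medians, with only the groups compared, and without the arrays numbered 2, 3, 4 or 5. Lpin1, a phosphatidate phosphatase of glycerolipid synthesis, fell in C4BP by 14% (limma, adjusted p = 0.00609), beside -0.045 in IAPP and -0.088 in C4BPD. Me1, malic enzyme, a source of NADPH, had positive differences of 0.11, 0.029 and 0.12, none called. Elovl5, an elongase, differed by -0.0005, 0.047 and 0.015, also with no call.

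Elovl6, an elongase of saturated chains (probe set 17742626), had no call in any pairwise comparison. Elovl6 read 4220.5, 4793, 4552, 5151 and 5358 in the DMSO wells and 3914, 4934, 4744, 4778 and 4832 in the IAPP wells. It read 4500.5, 5109.6, 4637, 5084 and 5324 in the C4BPD wells and 4336, 5000.1, 4604, 5026 and 4839 in the C4BP wells. All groups overlapped. The log2 difference of Elovl6 was -0.053 ± 0.072 (SE) in IAPP, 0.037 ± 0.072 in C4BPD and -0.013 ± 0.072 in C4BP, with 95% intervals that span 0, the last being -0.16 to 0.14.

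Set against each other, the sterol enzymes had lower medians than the fatty acid genes in every comparison with DMSO. The median log2 difference over the 16 sterol enzymes was -0.18 in IAPP, -0.15 in C4BPD and -0.23 in C4BP. Over the 11 fatty acid genes it was -0.082, -0.086 and -0.13, and over all 18166 genes it was 0.0018, -0.0090 and 0.0047. Calls in the sterol class were 6, 4 and 12 of 16, in the fatty acid class 3, 0 and 6 of 11, and among the 6 regulators and transport genes 2, 1 and 3. The difference between the classes was not tested. The mean over the sterol enzymes in each array, relative to the DMSO mean, was -0.19 ± 0.026 in IAPP, -0.16 ± 0.017 in C4BPD and -0.26 ± 0.043 in C4BP (log2, SD, n = 5), where the DMSO wells had an SD of 0.056. The same mean over the fatty acid genes was -0.092 ± 0.029, -0.048 ± 0.013 and -0.12 ± 0.020, with an SD of 0.032 in DMSO. All 15 treated arrays lay below all 5 DMSO arrays in both means, as the plot of class means by array shows.

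**Figure D3:**
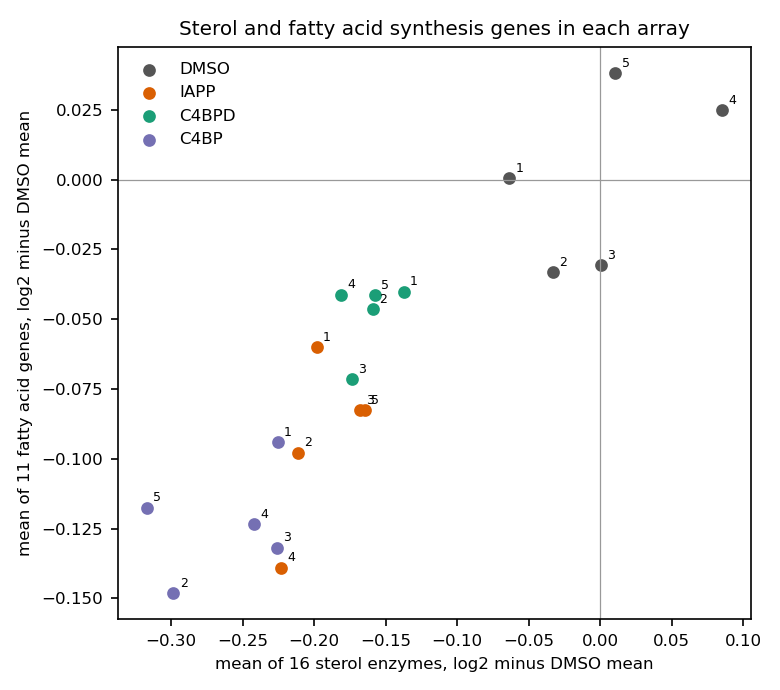
Mean log2 intensity of the 11 fatty acid genes (y axis) against that of the 16 sterol enzymes (x axis) in each of 20 arrays, both minus the mean of the 5 DMSO arrays, with colours for title groups and digits for array numbers. The C4BP arrays lie between -0.32 and -0.23 on the sterol axis, and the C4BPD arrays lie between -0.18 and -0.14 there and between -0.071 and -0.040 on the fatty acid axis.

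What IAPP does in the presence of C4BP is asked by C4BP against C4BPD, under the likely reading. There 5 of 33 members fell (15.2%), against 2.37% of all genes called in either direction. Hsd17b7 differed by -0.37 ± 0.077 (SE), Scd2 by -0.30 ± 0.067, Fdft1 by -0.24 ± 0.052, Msmo1 by -0.17 ± 0.043 and Acly by -0.13 ± 0.033 (limma, adjusted p = 0.00939, 0.0147, 0.0125, 0.0353 and 0.0402). All but Fdft1 had wells that did not overlap between these groups. These genes were picked by their calls, and such separation was not counted over all genes. The sterol median was -0.085 and the fatty acid median -0.040, where that of all genes was 0.012. The count was 3 without C4BPD 1, C4BPD 2 or C4BPD 4, and 2 without C4BP 2. Msmo1 lost its call in 7 of the fits without 1 array (without C4BPD 1 to 4 or C4BP 2, 4 or 5), Acly in 12 (without DMSO 2, IAPP 2, 3 or 5, C4BPD 1, 2, 4 or 5, or C4BP 1 to 4), and Scd2 without C4BP 2.

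What C4BP does in the presence of IAPP is asked by C4BP against IAPP. Msmo1 was the 1 member called, lower in C4BP by 12.5% (log2 difference -0.19 ± 0.043, SE; limma, adjusted p = 0.0389), where 0.606% of all genes were called. Its call was lost without any of IAPP 1 to 4, C4BPD 2 or 4, or C4BP 1, 2, 4 or 5, with an adjusted p of up to 0.119. Of 33 members, 24 had values below 0, beside 8944 of all 18166 genes. The median was -0.080 over the sterol enzymes and 0.012 over the fatty acid genes. Cyp51 differed by -0.14, Mvd by -0.12 and Lpin1 by -0.17 without a call, and the C4BP wells of Lpin1 lay below all its IAPP wells.

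C4BP alone and IAPP alone were set against each other by C4BPD against IAPP, where 4 members were called (12.1%), against 5.46% of all genes. Dhcr7 and Sc5d, which act at the end of cholesterol synthesis, were lower in C4BPD, by -0.18 ± 0.048 (SE) and -0.17 ± 0.041 (limma, adjusted p = 0.0336 and 0.0183). Acly and Acaca, which supply fatty acid synthesis, were higher in C4BPD, by 0.15 ± 0.033 and 0.20 ± 0.056 (limma, adjusted p = 0.0104 and 0.0447). The wells of each of the 4 genes did not overlap between these groups. The 4 were picked by their calls, and such separation was not counted over all genes. Of the 16 sterol enzymes, 11 had values above 0, and their median was 0.0084. The median was 0.048 over the fatty acid genes and -0.014 over all genes. Hsd17b7 had the largest difference of the 33 members, 0.26 ± 0.077 (SE), and was not called (limma, adjusted p = 0.05 as rounded). Its wells did not overlap between these groups either. With the array number as a block, 7 members were called. With arrays centred on their medians the split was 0 lower and 1 higher, and with quantile normalization 2 lower and 3 higher. The count was 1 without IAPP 1 or C4BPD 2, and 2 without C4BPD 4. Sc5d lost its call without IAPP 1 or C4BPD 2, and Dhcr7 without IAPP 1, 3 or 5 or C4BPD 2, 3 or 4. Acaca lost its call in 13 fits without 1 array (without DMSO 2 or 4, IAPP 1 to 4, any C4BPD array, or C4BP 3 or 4).

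Whether the IAPP difference is the same without and with C4BP was tested by the interaction, the difference of C4BP from C4BPD less that of IAPP from DMSO. Limma called 0 of 33 members, with a smallest adjusted p of 0.944, and 0.0495% of all genes. An unadjusted p under 0.05 was found for 6 of 33 members and for 688 of all 18166 genes. The 6 members were Insig1, Acss2, Dhcr7, Srebf1, Tm7sf2 and Idi1. The largest value was 0.26 for Insig1, whose IAPP difference was -0.30 without C4BP and -0.043 with it. The interaction value was above 0 in 16 of 16 sterol enzymes and in 84.8% of members, against 54.5% of all genes. The DMSO arrays enter each interaction value with a plus sign, and 15 of the 16 sterol enzymes had their highest group mean in DMSO. The signs of different genes thus share arrays and are not independent, and their count was not tested. The interaction values come from the same 20 arrays and describe them only. The map of every member in every array shows the pattern by well.

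**Figure D4:**
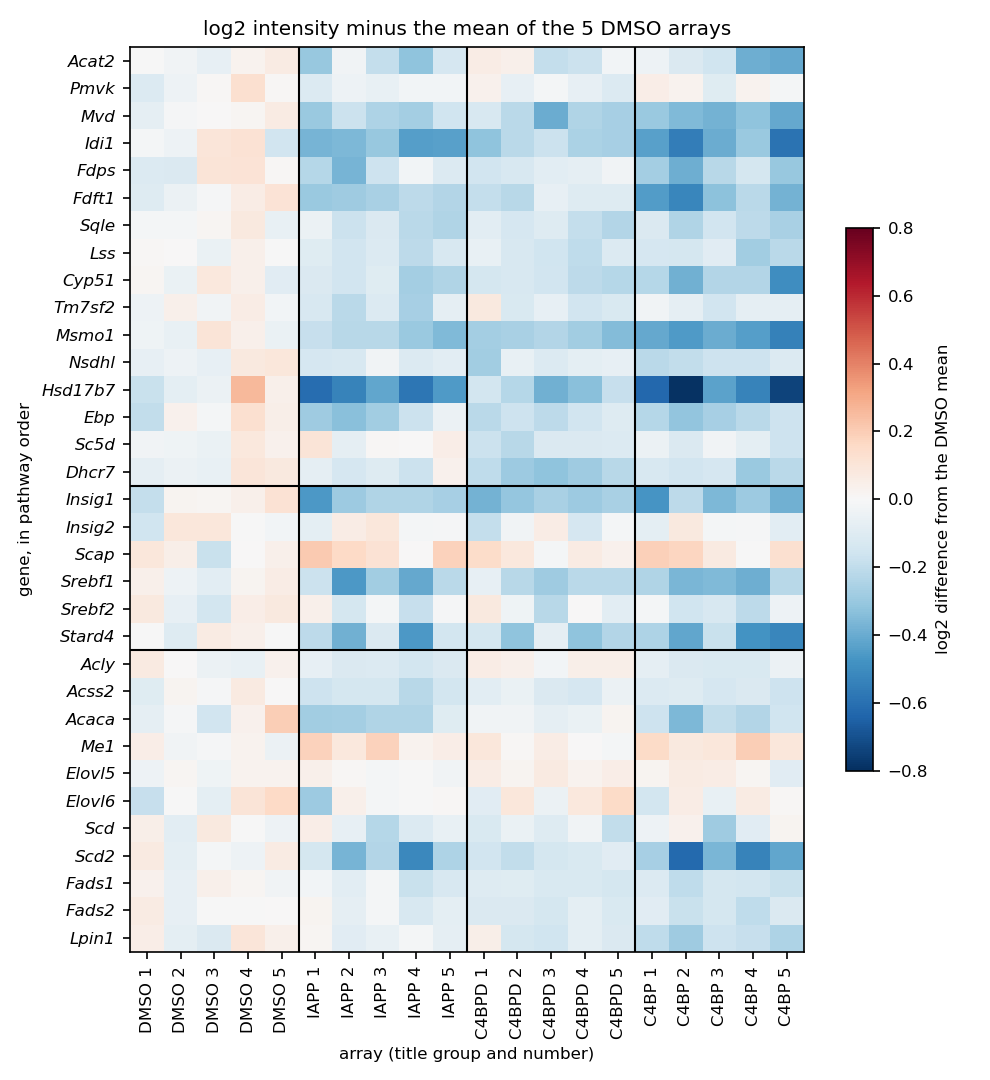
Log2 intensity minus the mean of the 5 DMSO arrays (colour, blue below and red above that mean) for the 33 members in pathway order (rows) in each of 20 arrays (columns, title group and array number). Most sterol rows are blue in all 15 treated arrays, Hsd17b7 is darkest in IAPP and C4BP, and Scap and Me1 are mostly red there.

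Of the lists next to the pathway, those of other sterol genes and of sterol export had the largest shares called in C4BP against DMSO, 28.6% and 30%, beside 5.96% of all genes. Of 12 measured genes of the isoprenoid branch, which uses farnesyl diphosphate for prenylation, dolichol and coenzyme Q, limma called 0 in each comparison with DMSO, with 0, 1 and 2 at an unadjusted p under 0.05 in IAPP, C4BPD and C4BP. Of 14 other sterol genes, 4 were called in IAPP (1 lower, 3 higher), 1 in C4BPD (lower) and 4 in C4BP (2 lower, 2 higher). These are 28.6%, 7.14% and 28.6% of that list, where 3.38%, 1.93% and 5.96% of all genes were called, and the calls ran in both directions. Aacs, which makes acetoacetyl-CoA from acetoacetate, fell by 0.20 in IAPP and 0.26 in C4BP on the log2 scale. Npc1, which exports cholesterol from lysosomes, rose by 0.31 and 0.24, and Lipa, the lysosomal cholesterol esterase, rose by 0.20 in IAPP. Tmem97, a known SREBP target, fell by 0.21 in both C4BPD and C4BP.

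Of 10 genes of SREBP processing and sterol-regulated degradation, 1 fell in IAPP (10%) and 2 fell in C4BP (20%). Limma called 0 of them in C4BPD, with 2 at an unadjusted p under 0.05. Of all genes, 3.38% were called in IAPP against DMSO (1.97% lower) and 5.96% in C4BP against DMSO (3.23% lower). In C4BPD against DMSO, 2208 of 18166 genes had an unadjusted p under 0.05. Rnf145, a ubiquitin ligase linked to sterol sensing, fell by 0.32 in IAPP and 0.35 in C4BP on the log2 scale (limma, adjusted p = 9.02e-06 and 1.37e-06), and Sar1a, a COPII coat GTPase, fell by 0.19 in C4BP. Of 10 genes of LXR signalling and sterol export, 1 was called in IAPP, 0 in C4BPD (1 at an unadjusted p under 0.05, limma) and 3 in C4BP. Abcg1, a sterol exporter, fell by 0.22 in IAPP and 0.27 in C4BP. In C4BP Mylip, a ubiquitin ligase induced by LXR, fell by 0.18 and Rxra, the partner of LXR, rose by 0.16. Of 25 other genes of fatty acid synthesis and esterification, 1 fell in IAPP (4%) and 2 fell in C4BP (8%). Of all genes, 1.97% and 3.23% were called lower there, and 3.38% and 5.96% were called in either direction. The difference from those shares was not tested. Limma called 0 of these 25 genes in C4BPD, with 4 at an unadjusted p under 0.05, beside 2208 of all 18166 genes. Mid1ip1, an activator of acetyl-CoA carboxylase, fell by 0.18 in IAPP and 0.15 in C4BP, and Acsl3, an acyl-CoA synthetase, fell by 0.24 in C4BP. Of 5 genes of NADPH supply, limma called 0 in each comparison with DMSO, with 0, 1 and 1 at an unadjusted p under 0.05.

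The beta-cell label was checked against 12 markers, of which 8 lay above the highest background value, 1313, in every array, Ins1, Ins2 and Iapp among them. Mean intensity over all arrays was 5915 for Ins1, 4501 for Ins2 and 11524 for Iapp. Nkx6-1, Nkx2-2, Mafa and Kcnj11 did not clear that value in every array, with means of 448, 1350.2, 1099 and 1441. Gcg, the glucagon gene of alpha cells, also lay above it in every array, with a mean of 9956. The summed intensity of 12 beta-cell markers ran from 68036 to 72646 in DMSO, 64846 to 68528 in IAPP, 68638 to 73181 in C4BPD and 64218 to 69076 in C4BP. Of these 12, 2 fell in IAPP (16.7%) and 4 in C4BP (33.3%), where 1.97% and 3.23% of all genes were called lower. The remaining 10 and 8 were not called there, and limma called 0 in C4BPD (2 at an unadjusted p under 0.05). The groups with called markers are those in which more members fell, and the part of these markers in the result was not tested. Gcg fell by 0.13 in IAPP on the log2 scale. Of 7 exocrine markers 1, Ctrb1, fell by 0.19 in IAPP and 0.21 in C4BP, and the summed list ran from 1067 to 1263 over all arrays. Markers of fibroblasts (7), leukocytes and endothelium (5) and hepatocytes (4) gave no limma call in the comparisons with DMSO, with at most 3 of a list at an unadjusted p under 0.05. Their summed intensities ran from 879 to 1049, 439.9 to 526 and 552 to 646.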

How the data were processed

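The data are 20 Rat Gene 2.0 arrays (Affymetrix) of INS-1 cells, 5 in each of 4 title groups. The authors deposited 1 linear intensity per probe set, which was read from the values (4.73 to 18574). The submitters' processing notes name Affymetrix Expression Console. How it normalized the arrays, with which version and annotation, is not given in the sources used here. Of 36685 probe sets, 190 controls were left out. Probe sets with 1 gene symbol in GEO's platform annotation (18511; 575 carried several and 17409 of those tested none) gave 18166 genes, the brightest probe set standing for each of 291 genes with several.

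The log2 of each intensity was fitted with limma 3.58.1 in R 4.3.3 (group means, lmFit and eBayes, all 20 arrays, 16 residual degrees of freedom, no filter on dim genes). All tests were two-sided with Benjamini-Hochberg adjustment over all genes and a threshold of 0.05. The model was tested on simulated data. Levels are arithmetic means with SD, and percent changes are of geometric means. The number of arrays limits the precision. An intensity depends on its probe set as well as on the RNA, so levels of different genes have no order.

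Members, gene lists and tests were chosen with earlier results of these data known. All 33 measured members are reported, with values in every array for the smallest F-test p values (up to 6 sterol enzymes, 3 regulators and 4 fatty acid genes) and the member without a call that had the highest mean intensity, a rule of display only. Of each other list, up to 3 genes with the smallest p in each comparison with DMSO were eligible. Deviations of same-numbered arrays from their group means correlated over 0.1 in all 5 pairs in C4BPD against IAPP (0.152 to 0.305), so the number is a block beside that count. Each of the other 5 comparisons had a pair at or under that value. In C4BP against IAPP the correlations ran from -0.009 to 0.51. Their median was 0.318, above the 0.169 of C4BPD against IAPP. The consensus correlation of the random block was 0.21, and the main fit used no block. Alternatives were other scalings, probe set rules, a filter, blocks, weights, priors, an offset of 16, grouping by the treatment field, and leaving out each array or number. Promoters came from RefSeq's GRCr8 table. Protein sequences were not used here. Figures used Python 3.11.15 and matplotlib 3.10.9.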

Additional observations from a re-analysis of the deposited data

Results flagged for a closer look

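In 5 of 132 groups of 5 arrays tested, 1 array lay far from the others by Dixon's ratio, and chance flags about 1 group in 20. Nsdhl read 1807 in C4BPD 1, below the other C4BPD wells, which ran from 2037 to 2104. Insig1 read 1495 in IAPP 1, below the other IAPP wells at 1681 to 1737, and Elovl6 read 3914 in the same array, below 4744 to 4934. Acly read 8808 in C4BPD 3, where the others ran from 9163 to 9299. Acaca read 1467 in IAPP 5, above the others at 1292 to 1331.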

How the results depend on the processing

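Outside the grouping by the treatment field, no called member changed direction under any alternative. Of 47 calls of a member in a pairwise comparison, 16 held under all 36 other alternatives, 33 held in every fit without 1 array, 29 under every other scaling or model, and 16 without each array number. The cause of the changes was not tested. The dimmer members Hsd17b7, Mvd, Srebf1, Stard4 and Acaca did not clear the highest background value, 1313, in every array. All 33 members lay above the median background mean, 57.9, in every array. Whether background affected their differences was not tested.

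In IAPP against DMSO the count of 11 members became 17 with dim genes left out and 18 with the replicate number as a fixed or random block. In C4BPD against DMSO the count of 5 became 8 with dim genes left out, 15 and 12 with the fixed and random block, 11 with array weights and 9 with a trended robust prior. In C4BP against C4BPD the count of 5 became 3 with arrays centred on their medians or with all probe sets tested, 2 with only the groups compared, and 9 with the fixed block. In C4BP against IAPP the count of 1 became 0 with centred arrays, all probe sets, only the groups compared or array weights, and 2 with either block. In C4BPD against IAPP the count of 4 became 1 with centred arrays, 2 with all probe sets and 7 with the fixed block. In C4BP against DMSO the count of 21 became 16 with centred arrays. The F test called 14 of 33 with centred arrays or all probe sets in place of 22. The block changed no other count by over 1.5 times. Arrays of 1 number also follow one another in the running number of the titles, and the labels do not say what either number marks.

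Leaving out 1 array or the 4 arrays of 1 number gave counts of 5 to 14 in IAPP against DMSO, 3 to 6 in C4BPD against DMSO, 11 to 21 in C4BP against DMSO, 0 to 7 in C4BP against C4BPD, 0 to 1 in C4BP against IAPP, 0 to 5 in C4BPD against IAPP and 10 to 22 in the F test. The sterol median in C4BP against DMSO ran from -0.28 to -0.19, and the fatty acid median from -0.10 to -0.057 in IAPP and from -0.090 to -0.056 in C4BPD.

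With arrays grouped by the treatment field, limma called 0 members in every comparison and in the F test, where 0 to 2 members had an unadjusted p under 0.05, and most values turned sign. The sterol medians were then 0.037 in IAPP, 0.050 in C4BPD and 0.11 in C4BP against DMSO, 0.058 in C4BP against C4BPD and 0.055 in C4BP against IAPP. The fatty acid medians were 0.027, 0.0015 and 0.058 against DMSO, 0.038 in C4BP against C4BPD and -0.025 in C4BPD against IAPP. In IAPP against DMSO the values were 0.082 for Mvd, 0.091 for Idi1, 0.11 for Fdft1, 0.041 for Msmo1, 0.23 for Hsd17b7, 0.057 for Srebf1, 0.071 for Acaca, 0.10 for Scd2 and 0.0036 for Acss2. In C4BPD against DMSO the values were 0.084 for Mvd, 0.023 for Idi1, 0.035 for Msmo1, 0.054 for Dhcr7 and 0.031 for Insig1. In C4BP against DMSO the values were 0.17 for Mvd, 0.13 for Idi1, 0.080 for Fdps, 0.18 for Fdft1, 0.064 for Sqle, 0.058 for Lss, 0.13 for Cyp51, 0.17 for Msmo1, 0.10 for Nsdhl, 0.28 for Hsd17b7, 0.069 for Ebp, 0.11 for Dhcr7, 0.086 for Insig1, 0.065 for Stard4, 0.087 for Srebf1, 0.11 for Acaca, 0.17 for Scd2, 0.067 for Fads1, 0.080 for Fads2, 0.028 for Acss2 and 0.20 for Lpin1. In C4BP against C4BPD the values were 0.11 for Fdft1, 0.13 for Msmo1, 0.12 for Hsd17b7, 0.035 for Acly and 0.16 for Scd2. In C4BP against IAPP the values were 0.13 for Msmo1. In C4BPD against IAPP the values were 0.031 for Sc5d, 0.057 for Dhcr7, -0.057 for Acly and -0.0016 for Acaca.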
